A study of Mus musculus with 22 samples.

Results

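Sterol and fatty acid synthesis was followed over 31 genes through gastruloids of days 3 to 5. They were chosen by gene symbol, from a list drawn up with results of these data in view, and all 31 were found among the 32285 genes of the deposited matrices. By role the list holds 6 enzymes of the mevalonate arm (Acat2, Hmgcs1, Mvk, Pmvk, Mvd, Idi1), 3 that lead to and act on squalene (Fdps, Fdft1, Sqle) and 9 that close and trim the sterol ring (Lss, Cyp51, Tm7sf2, Msmo1, Nsdhl, Hsd17b7, Ebp, Sc5d, Dhcr7). It also holds 5 genes of sterol control and transport (Insig1, Srebf1, Srebf2, Scap, Stard4) and 8 of fatty acid synthesis (Acly, Acss2, Acaca, Mid1ip1, Fasn, Elovl6, Scd1, Scd2). The authors' gene table marks 11 of the 31 as variable, among 4214 such genes of the 32285.

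Gastruloids are aggregates of mouse embryonic stem cells that, after a pulse of the GSK3 inhibitor CHIR99021, elongate and form cells like those of the posterior embryo. All came from 1 line, E14Tg2A (E14), with no genetic change and the same pulse, so the groups differ in day of culture and in experiment only. The study was set up to measure how much individual gastruloids of one age vary, and each gastruloid received its own lipid-anchored barcode (MULTI-seq) before cells were pooled and run in 10x Genomics 3' droplet lanes. The MULTI-seq 1 experiment held day 5 gastruloids (24), the MULTI-seq 2 gastruloids called here came from 1 pool of days 4 (11) and 4.5 (12), and MULTI-seq 3 held day 3 (24), days 3.5 and 4 in 1 pool (16 each) and days 4.5 and 5 in another (16 each). The gastruloid was the replicate throughout, and the days compared by a test always shared a pool.

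Cells make cholesterol from acetyl-CoA through mevalonate, farnesyl pyrophosphate, squalene and a chain of ring sterols, while fatty acids are built from the same acetyl-CoA. Much of both routes is switched on by SREBP transcription factors, the products of Srebf1 and Srebf2: when membrane sterol is low, SCAP escorts them from the endoplasmic reticulum for cleavage, and when it is high, INSIG proteins hold SCAP back. Because many of these genes answer to the same factors, their transcripts often rise and fall together, and in embryos cholesterol is also needed to modify and receive Hedgehog ligands.

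The cell table used here holds 77674 cells in 18 lanes, of which 53730 were called to 1 of 136 gastruloids, and 135 of those had at least 30 cells. Lane totals ran from 30065021 to 238431052 UMIs (unique molecules), lane medians from 8287 to 38443 UMIs per cell, and gastruloid sums from 1293296 to 57333371 UMIs. Of 76935 cell barcode sequences, 732 occur in at least 2 libraries. The experiments differ in depth and in mitochondrial share: MULTI-seq 1 had a mean of 12400 UMIs per cell against 27610 to 41420 in the other day groups, and mitochondrial UMIs were 5.32% to 5.68% in MULTI-seq 1 and 2 and 2.05% to 2.29% in MULTI-seq 3. Levels are a gene's UMIs scaled to the UMI total of the gastruloid, or of its cells of 1 type, in CPM, the usual unit of counts corrected for library size, and the summed level adds all 31 genes. They are not divided by transcript length and are compared within a gene only. Reads of Fdps and of Tm7sf2 overlap a neighbouring gene on the same strand (Gm43738 and Vps51) and Acat2 has the near copy Acat3, so these 3 levels are uncertain.

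Summed over whole gastruloids, the 31 genes had group means between 2465 and 2995 CPM. Abundant genes such as Scd2 and Hmgcs1 weigh most in this sum, so it says little about the scarce ones. In MULTI-seq 3 the day 3 mean was 2465 ± 85.5 CPM (SD, n = 24), and the means of days 3.5, 4, 4.5 and 5 were 2742 ± 178, 2763 ± 102, 2470 ± 235 and 2507 ± 131 CPM (n = 16 each). MULTI-seq 2 gave 2771 ± 227 at day 4 (n = 11) and 2559 ± 219 at day 4.5 (n = 12). MULTI-seq 1 gave 2995 ± 215 at day 5 (n = 24), the highest mean of the 8 groups. Neighbouring days overlapped in their gastruloids, and day 3, days 3.5 and 4, and days 4.5 and 5 of MULTI-seq 3 came from 3 separate pools.

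**Figure D1:**
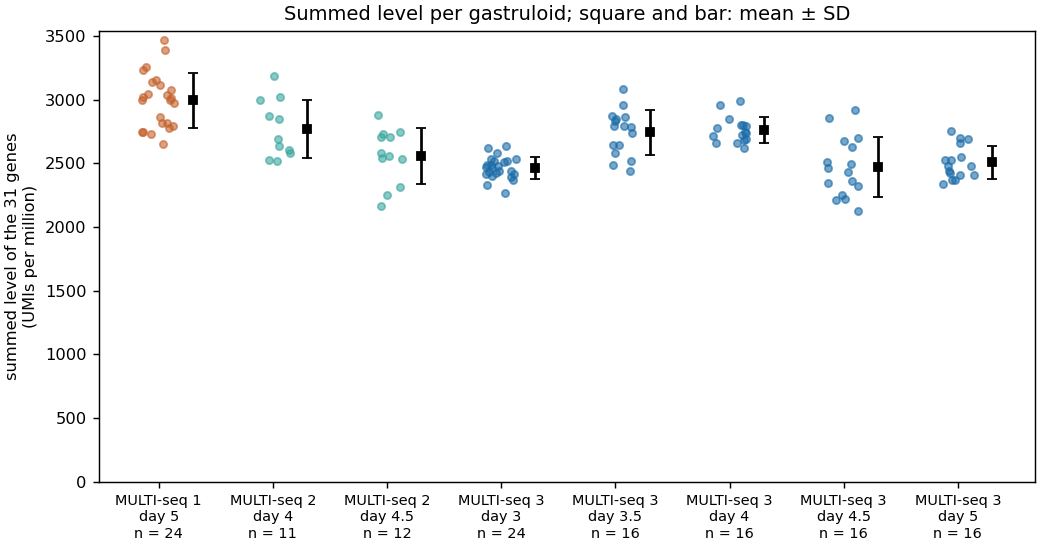
Summed level of the 31 genes in CPM (vertical axis, from 0) for each gastruloid (points), by experiment and day, with the mean and SD as a square and bar. The group means lie between 2465 and 2995 CPM; neighbouring days of an experiment overlap, while day 3 of MULTI-seq 3 (2265 to 2632 CPM) lies wholly below MULTI-seq 1 (2655 to 3470 CPM).

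Single genes did move between days 3.5 and 4 of MULTI-seq 3, some up and some down, in every role but the squalene group, where no gene fell. Whole gastruloids (16 against 16) showed 9 of the 31 genes higher and 11 lower at day 4, beside 31.1% and 29.2% of all genes tested. The median log2 fold change was -0.05 over the 31 and 0.01 over all genes, so these shares do not set the list apart. Calls are at an adjusted p under 0.05 from edgeR's quasi-likelihood test, adjusted by Benjamini-Hochberg over all genes tested. A sum over a whole gastruloid moves with its makeup as well as with the level per cell, which cannot be told apart in it; the mean share of neural cells was 37.3% at day 3.5 and 10.24% at day 4, all 4 somite and all 4 cardiopharyngeal markers tested were higher and all 3 neuron markers lower.

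Of the mevalonate arm, Acat2 and Hmgcs1 rose and Idi1 and Pmvk fell. Hmgcs1, the synthase that makes HMG-CoA, went from 382.2 ± 54.51 to 431.3 ± 27.64 CPM (log2 fold change 0.15 ± 0.05, SE, adjusted p = 0.0064). Idi1, which isomerises isopentenyl pyrophosphate, went from 219.9 to 198.2 CPM (-0.17 ± 0.07, adjusted p = 0.048), and with the share of neural cells as a covariate its sign turned to 0.03. In the squalene group Fdps (0.25 ± 0.03, adjusted p = 1.7e-07) and Fdft1 (0.16) rose, while Sqle, the squalene epoxidase, had 0.05 and did not pass. Of the 9 ring enzymes, Sc5d (0.27 ± 0.05) and Nsdhl (0.22 ± 0.05) rose and Ebp, Tm7sf2 and Hsd17b7 fell. The genes that did not pass in whole gastruloids were Mvk, Mvd, Sqle, Lss, Cyp51, Msmo1, Dhcr7, Insig1, Stard4, Acaca and Elovl6, with fold changes from -0.12 (Msmo1) to 0.09 (Cyp51).

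Ebp, the sterol isomerase, ran from 36.08 to 62.14 CPM at day 3.5 with a median of 48.73, and from 27.61 to 43.42 with a median of 30.52 at day 4. The ranges overlapped from 36.08 to 43.42 CPM (log2 fold change -0.67 ± 0.06, adjusted p = 4.7e-10). Hsd17b7, the keto-reductase of the ring, ran from 21.58 to 38.47 CPM at day 3.5 and from 17.15 to 31.36 at day 4 (-0.51 ± 0.09, adjusted p = 1.1e-05). The day 4 gastruloids lay lower for both enzymes, with overlap.

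The control genes split: Srebf2, the factor most tied to sterol genes, rose (62.41 ± 4.928 to 71.12 ± 3.498 CPM, 0.16 ± 0.03, adjusted p = 1.6e-05), and Srebf1, more tied to fatty acid genes, fell (13.13 ± 2.137 to 11.01 ± 1.1 CPM, -0.28 ± 0.07, adjusted p = 0.00092). Scap fell (-0.42 ± 0.08), while Insig1, the sterol-sensing retention protein, had -0.07 and did not pass. Of the fatty acid group Mid1ip1 and Acly rose and Acss2, Fasn, Scd1 and Scd2 fell. Mid1ip1, which activates acetyl-CoA carboxylase, ran from 17.31 to 30.97 CPM (median 24.56) at day 3.5 and from 21.98 to 70.42 (median 56.55) at day 4, and had the largest fold change of the 31 (1.04 ± 0.12, adjusted p = 2.7e-08). Acly, which cuts citrate to acetyl-CoA, went from 119.4 ± 13.33 to 147.7 ± 12.04 CPM (0.28 ± 0.05, adjusted p = 6.2e-05). Fasn, the fatty acid synthase, ran from 64.82 to 107.9 CPM (median 91.29) at day 3.5 and from 53.98 to 83.39 (median 64.9) at day 4 (-0.42 ± 0.06, adjusted p = 9.7e-07). The desaturase Scd2 went from 544.8 ± 28.08 to 460.5 ± 29.74 CPM (-0.27 ± 0.03, adjusted p = 5.5e-08), and Scd1 from 59.28 ± 3.634 to 52.49 ± 5.026 (-0.20 ± 0.04).

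Neighbouring routes were read from lists of other genes. Of the sterol uptake and SREBP processing genes, 6 of 8 tested rose and none fell (median 0.33), among them Npc1, which exports cholesterol from lysosomes (0.54 ± 0.10), Insig2 (0.37) and the protease genes Mbtps2 (0.29) and Mbtps1 (0.14). The efflux list had 2 higher and 3 lower of 7: the cholesterol exporters Abca1 (3.08 ± 0.26, adjusted p = 1.1e-10) and Abcg1 (0.90) rose, and Soat1 (-0.71) and Apoe (-0.43) fell. Of 16 other fatty acid synthesis genes, 2 rose and 9 fell, with Hacd2 at -0.30 and Slc25a1, the citrate carrier, at -0.22. Of 8 fatty acid oxidation genes 5 fell and none rose (Acadl -0.68, Hadhb -0.64), and of 10 cell cycle genes 5 rose (Mki67 0.37) and 3 fell (Mcm2 -0.38).

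Within single cell types, the genes called at the same day step were all lower in one type and mostly higher in another. The types are the authors' clusters, and cells of a type were summed per gastruloid where at least 20 were present. Acss2, the acetate-activating enzyme, was left out by the filter on low counts in both. Caudal Epiblast cells, posterior precursors of cord and mesoderm, showed 0 higher and 14 lower of 30 genes tested at day 4 (13 gastruloids a day), beside 9.58% and 9.19% of all genes, with a median log2 fold change of -0.19 against 0.01. Early Posterior PSM cells, young presomitic mesoderm, showed 12 higher and 4 lower of 30 (10 against 15 gastruloids), beside 18.3% and 18.6%, with a median of 0.17.

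In Caudal Epiblast cells the lower genes sat late in the route: none of the 6 mevalonate genes passed, but Sqle did, with 6 of the 9 ring enzymes (Dhcr7, Tm7sf2, Cyp51, Msmo1, Ebp, Sc5d). Sqle ran from 63.99 to 108.7 CPM (median 83.22) at day 3.5 and from 43.53 to 78.07 (median 56.23) at day 4 (-0.47 ± 0.07, adjusted p = 3.2e-05). Msmo1, the methylsterol oxidase, ran from 83.71 to 157.2 CPM (median 125.2) and then from 70.99 to 123.4 (median 93.93; -0.38 ± 0.08, adjusted p = 0.00094). Cyp51, the lanosterol demethylase, went from a mean of 157.8 to 118.1 CPM (-0.39 ± 0.07, adjusted p = 0.00021), and Dhcr7, the last reductase, from 21.89 to 16.09 (-0.41). These were shifts of overlapping groups.

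Another 3 control genes and 4 fatty acid genes also fell in Caudal Epiblast cells. Insig1 went from 41.07 to 30.87 CPM (-0.35 ± 0.09, adjusted p = 0.0075), Srebf1 had -0.38 and the sterol carrier Stard4 -0.28. Scd1 went from 64.34 to 48.66 CPM (-0.37 ± 0.07, adjusted p = 0.00046). Fasn had -0.34 ± 0.07 (adjusted p = 0.00028), Scd2 -0.26 ± 0.04 (adjusted p = 3.5e-06) and Acaca, an acetyl-CoA carboxylase, -0.24. Hmgcs1 had means of 360.4 ± 48.51 and 366.9 ± 39.69 CPM and did not pass. Outside the list, Mbtps1 rose.

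In Early Posterior PSM cells 4 of 6 mevalonate genes (Acat2, Hmgcs1, Mvd, Idi1), all 3 squalene genes and 3 ring enzymes (Msmo1, Nsdhl, Sc5d) rose. Hmgcs1 ran from 199.5 to 273.7 CPM (median 243.1) at day 3.5 and from 166.2 to 467.4 (median 362.3) at day 4 (0.49 ± 0.10, adjusted p = 0.00013). Idi1 went from 105.5 ± 18.75 to 145.2 ± 26.88 CPM (0.39 ± 0.08, adjusted p = 0.00024). Sqle ran from 38.91 to 67.2 CPM (median 54.19) and then from 31.91 to 88.23 (median 75.51; 0.30 ± 0.08, adjusted p = 0.0051). Msmo1 ran from 48.3 to 77.5 CPM (median 63.77) and then from 39.88 to 100.3 (median 87.69; 0.42 ± 0.09). The day 4 minima come partly from 1 gastruloid with 27 such cells, whose summed level of 1626 CPM was the lowest (the next was 1823) and in which 17 of the genes were at their lowest.

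Against that rise, Hsd17b7 fell in Early Posterior PSM cells without overlap, from 26.39 to 42.49 CPM (median 32.86) at day 3.5 to 13.61 to 24.45 (median 18.82) at day 4 (-0.87 ± 0.08, adjusted p = 1e-09). Ebp fell as well (-0.66 ± 0.07, adjusted p = 2.2e-08). Srebf2 rose (0.31 ± 0.06, adjusted p = 7.5e-05) while Srebf1 fell (-0.43). Mid1ip1 ran from 5.3 to 27.31 CPM (median 13.0) and then from 26.59 to 58.87 (median 32.28; 1.06 ± 0.17, adjusted p = 7.4e-06), groups that met only at their ends. Scd2 fell (-0.16), while Acly (0.13), Fasn (-0.16), Scd1 (-0.09) and Insig1 (0.17) did not pass. Outside the list Npc2 fell, and 5 of 8 fatty acid oxidation genes fell.

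**Figure D2:**
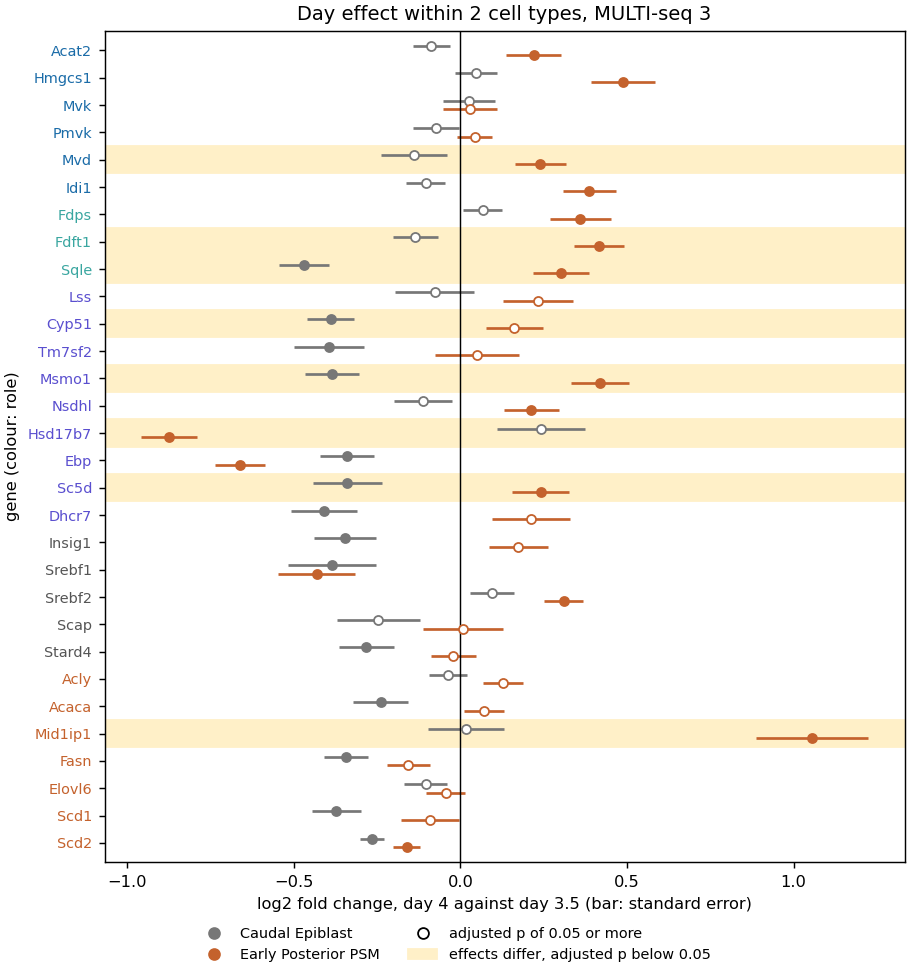
Log2 fold change of day 4 against day 3.5 (horizontal axis, bar: standard error) for 30 genes (rows, coloured by role) in Caudal Epiblast (grey) and Early Posterior PSM (orange) cells of MULTI-seq 3; filled points passed an adjusted p of 0.05 and shaded rows are the 8 genes whose effects differed between the types. Most grey points lie left of 0, and Mid1ip1 (1.06) and Hsd17b7 (-0.87) in Early Posterior PSM cells lie farthest out.

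Sqle, Msmo1 and Sc5d passed in both types with opposite signs, and Ebp, Srebf1 and Scd2 fell in both. The difference between the types was tested directly, with limma on the log2 difference between the types within each gastruloid (10 gastruloids at day 3.5 and 12 at day 4), a test added after the data were seen. It called 8 of 30 genes, beside 4.80% of 9655 genes tested, 7 with a more positive effect in Early Posterior PSM cells. The difference was 0.60 ± 0.11 for Fdft1, the squalene synthase (adjusted p = 0.0025), 0.76 ± 0.18 for Sqle (adjusted p = 0.017), 0.72 ± 0.19 for Msmo1 (adjusted p = 0.030), 0.62 ± 0.15 for Sc5d (adjusted p = 0.015) and 0.55 ± 0.14 for Cyp51 (adjusted p = 0.022). Mvd had 0.44 ± 0.12 (adjusted p = 0.029) and Mid1ip1 1.10 ± 0.24 (adjusted p = 0.0081), and Hsd17b7 was the 1 gene with a more negative effect (-1.06 ± 0.21, adjusted p = 0.0049). Idi1 (0.52, adjusted p = 0.0598) and Hmgcs1 (0.42, adjusted p = 0.159) did not pass. The median difference was 0.29 over the 30 genes and 0.01 over all genes.

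Several measures moved along with the day inside these types. Mean UMIs per cell went from 43360 ± 7288 to 33470 ± 2809 in Caudal Epiblast cells and from 36690 ± 3910 to 31190 ± 1886 in Early Posterior PSM cells, with mitochondrial shares of 1.945% and 1.918%, and of 2.407% and 2.591%. With the ratio of UMIs per cell of the types as a covariate, 7 of the 30 differences were called in place of 8, with a median of 0.26. Cell type markers moved too, and their part in the result was not tested. In Caudal Epiblast cells the summed PSM markers (Tbx6, Msgn1, Dll1, Hes7) went from 237.4 to 415.0 CPM, the type's own markers (T, Nkx1-2, Cdx2, Sox2) from 1089 to 1012 and neuron markers from 356.0 to 271.3, while all 3 spinal cord and neurectoderm markers tested (Irx3 1.48, Sox2 0.40, Sox3 0.36) were higher and that list went from 78.85 to 115.9 CPM. In Early Posterior PSM cells the summed PSM markers stood at 622.4 and 640.4 CPM, but single PSM markers moved. Of the 4 tested, 1 was called higher and 2 lower (Msgn1, Tbx6 and Dll1), with a median log2 fold change of -0.265. In the same cells the Caudal Epiblast and NMP markers went from 286.4 (165.6 to 488.6) to 106.3 (72.34 to 222.8), and somite markers went from 28.59 (15.06 to 60.78) to 160.7 (100.9 to 256.1). Irx3 and Sox2 were also higher in the latter cells, and the endoderm markers Cdh1 and Epcam and the neuron markers Stmn2 and Tubb3 lower. Blood markers were at 0 in both types on both days.

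The level before this step differed between the types, as a description since the clusters rest on the same values. At day 3.5, 20 of 31 genes were higher and 1 lower in Caudal Epiblast than in Early Posterior PSM cells of the same gastruloid in at least 90% of 10 gastruloids, beside 23.4% and 13.3% of all genes; Tm7sf2 had a median log2 difference of 1.23, Dhcr7 0.99, and Acly -0.66. At day 4 the same comparison over 12 gastruloids had 7 higher and 4 lower of 30 (16.6% and 14.5%), and the median difference was 0.04 against 0.50 at day 3.5. Caudal Neurectoderm stood higher still at day 3.5, with 24 of 30 genes above Early Posterior PSM and 1 below in 5 gastruloids (29.7% and 15.0%; Idi1 1.74, Msmo1 1.55, Hsd17b7 -0.79).

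Promoters of the genes that moved are shown because the list is known for shared control at the start site. RefSeq windows on GRCm38.p6, from 250 bases before to 50 after each start, were matched for 25 of the 31 genes; Fdft1, Fdps, Scd1, Scd2, Sqle and Stard4 were not matched. The sequences read 5′ to 3′ on the gene's strand, and capitals mark matches on either strand to the CCAAT box (CCAAT, or ATTGG in reverse) and to the sterol regulatory element searched (TCACNCCAC). Hmgcs1 and Msmo1 rose in Early Posterior PSM cells, where Mid1ip1 had the largest rise and Hsd17b7 the largest fall of the 30 genes, and Cyp51 fell in Caudal Epiblast cells.
Hmgcs1, chr13:119690101-119690400, plus strand: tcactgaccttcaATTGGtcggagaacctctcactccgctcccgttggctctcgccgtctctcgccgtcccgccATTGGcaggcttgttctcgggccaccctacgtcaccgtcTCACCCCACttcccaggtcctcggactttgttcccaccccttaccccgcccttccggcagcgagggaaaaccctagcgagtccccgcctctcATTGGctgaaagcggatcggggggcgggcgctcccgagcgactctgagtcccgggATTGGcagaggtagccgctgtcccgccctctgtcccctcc
Msmo1, chr8:64733529-64733828, minus strand: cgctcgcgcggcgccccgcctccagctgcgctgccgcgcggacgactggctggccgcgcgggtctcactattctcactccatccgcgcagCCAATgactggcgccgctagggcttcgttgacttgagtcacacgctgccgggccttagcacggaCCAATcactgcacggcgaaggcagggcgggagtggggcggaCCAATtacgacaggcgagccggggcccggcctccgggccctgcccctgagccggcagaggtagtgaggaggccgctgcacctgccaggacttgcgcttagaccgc
Cyp51, chr5:4104648-4104947, minus strand: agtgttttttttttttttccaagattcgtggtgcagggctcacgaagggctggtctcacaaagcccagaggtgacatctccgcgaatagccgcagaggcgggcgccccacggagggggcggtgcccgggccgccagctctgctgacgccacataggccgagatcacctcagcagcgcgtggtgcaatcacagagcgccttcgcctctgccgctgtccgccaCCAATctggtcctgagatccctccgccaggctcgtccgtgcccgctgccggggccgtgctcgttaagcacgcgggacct
Hsd17b7, chr1:169969156-169969455, minus strand: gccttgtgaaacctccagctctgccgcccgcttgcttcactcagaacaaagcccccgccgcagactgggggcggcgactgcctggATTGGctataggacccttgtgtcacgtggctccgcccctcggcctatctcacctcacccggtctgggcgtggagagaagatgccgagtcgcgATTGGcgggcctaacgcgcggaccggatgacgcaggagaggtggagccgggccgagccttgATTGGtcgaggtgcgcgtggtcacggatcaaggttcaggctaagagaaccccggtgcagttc
Mid1ip1, chrX:10717115-10717414, plus strand: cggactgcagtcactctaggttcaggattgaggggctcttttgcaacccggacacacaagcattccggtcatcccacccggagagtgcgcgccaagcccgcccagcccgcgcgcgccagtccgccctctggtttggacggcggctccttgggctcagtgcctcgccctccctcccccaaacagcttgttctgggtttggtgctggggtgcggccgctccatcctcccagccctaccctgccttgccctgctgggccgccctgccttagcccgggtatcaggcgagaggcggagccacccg

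The Hmgcs1 window holds the sterol element and 4 CCAAT boxes, Msmo1 and Hsd17b7 hold 3 CCAAT boxes each, Cyp51 holds 1 and Mid1ip1 none, so genes that moved in opposite directions share the box. CCAAT, bound by NF-Y, was found for 20 of the 25 genes (80.0%), against 41.1% of 27025 genes with a window and 43.5% of the 10140 of them that were tested. The GC box (GGGCGG) was found for 21 of 25 (84.0%, against 38.2% and 70.8%), the E box (CACGTG) for 5 (20%, against 8.09% and 12%) and the sterol element for 1, Hmgcs1 (4.0%, against 1.44% and 1.41%). A gene counts where any of its windows matches, both strands were searched, and no searched motif contains another. A match is a description of the letters in the window and not a bound site.

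Between days 4 and 4.5 of MULTI-seq 2 the genes of the list that were called were all lower. Whole gastruloids (11 against 12) had 0 genes higher and 9 lower of 31, beside 3.03% and 4.33% of all genes, with a median log2 fold change of -0.16. The 9 were Hsd17b7 (-0.34), Stard4 (-0.32), Ebp (-0.31), Scd2 (-0.28 ± 0.05, adjusted p = 0.00083), Cyp51 (-0.25), Pmvk (-0.24), Nsdhl (-0.22), Acly (-0.20) and Sqle (-0.16). Scd2 ran from 325.1 to 424.9 CPM (median 360.5) at day 4 and from 272.3 to 334.9 (median 308.1) at day 4.5. All 4 endoderm markers (Cdh1, Foxa2, Epcam, Sox17; median -1.76) and all 3 streak and nascent mesoderm markers tested (Mixl1, T, Mesp1; median -1.58) were lower too, and Pax6 was higher; their part in the result was not tested. The mean share of neural cells was 22.97% and 43.54%, and with that share as a covariate 17 genes were lower. Without lane 2 of the pool 3 were, and with UMIs per cell as a covariate 5. The 4.33% of all genes belongs to the main fit, and the shares in these alternative fits are not given.

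Mature Somites cells, 1 of the 2 types of that pool that could be tested, had lower levels of 10 genes, of which Cyp51, Acly and Sqle were also lower in whole gastruloids. With 4 gastruloids at day 4 and 7 at day 4.5, 0 genes were higher and 10 lower of 30, beside 0.351% and 0.537% of 9126 genes, of which 49 were lower in all. Mid1ip1 was 40.85, 52.51, 55.96 and 60.3 CPM in the 4 day 4 gastruloids and 17.11 to 33.31 (median 21.98) at day 4.5 (-1.20 ± 0.15, adjusted p = 0.00024). Idi1 was 159.7, 162.6, 179.8 and 192.9 CPM at day 4 and 99.57 to 147.8 (median 114.1) at day 4.5 (-0.61 ± 0.09, adjusted p = 0.0019). Scd1 was 45.27, 49.14, 56.17 and 59.35 CPM and then 27.8 to 40.73 (-0.69 ± 0.13, adjusted p = 0.016). In these 3 genes every day 4 gastruloid lay above every day 4.5 gastruloid.

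The groups were also apart for Sqle, Msmo1 and Acly. Sqle was 97.9, 110.6, 116 and 141.6 CPM at day 4 and 71.54 to 94.09 at day 4.5 (-0.50 ± 0.10, adjusted p = 0.018). Msmo1 was 152.6, 157.7, 194.1 and 221.1 CPM and then 83.61 to 149.5 (-0.54 ± 0.13, adjusted p = 0.044). Acly was 164.2, 165, 194.1 and 218.2 CPM and then 127.2 to 149.7 (-0.42 ± 0.08, adjusted p = 0.013). The other 4 that fell were Dhcr7, whose groups overlapped (29.29, 31.27, 35.41 and 42.73 CPM against 11.76 to 31.42; -0.74 ± 0.18, adjusted p = 0.044), Cyp51 (-0.40 ± 0.09), Fdps (-0.36 ± 0.09) and Acat2 (-0.33 ± 0.07). Hmgcs1 overlapped and did not pass (319.9, 337.3, 392.2 and 395.6 CPM against 230.9 to 373.5). The lists of uptake, efflux, oxidation and cell cycle genes had no call.

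With 4 gastruloids at day 4, the count rests on few of them: leaving out each in turn gave 2 to 6 lower genes, and a minimum of 10 cells gave 6. Over all genes tested, leaving out each gastruloid gave 13, 8, 13 and 78 lower, with 5, 2, 4 and 6 of the list among them. UMIs per cell were 26730 at day 4 and 23390 at day 4.5, mitochondrial shares 5.64% and 5.593%, somite markers 964.3 and 1043 CPM and cardiopharyngeal markers 77.45 and 62.31 CPM. Of the markers tested, the somite gene Pax3 was higher at day 4.5 (0.61, adjusted p = 0.044) and the neuron gene Stmn2 lower (-0.60, adjusted p = 0.048), and their part in the result was not tested. In Late Posterior PSM cells of the same pool (4 against 8), edgeR called 0 of 29 genes in either direction, beside 0.416% and 0.430% of all genes. With so few calls over all genes, this count says little. With each day 4 gastruloid left out in turn, the list's median log2 fold change was -0.19, -0.18, -0.13 and -0.10. Above 0 were 4 of 30, 6 of 29, 6 of 30 and 5 of 28 genes. Medians over all genes then lay between -0.004 and 0.001, and whether the 2 types differ was not tested. MULTI-seq 3 held days 4 and 4.5 in different pools, so its Mature Somites means are set side by side only: Idi1 was 190.9, 113.6 and 130.1 CPM at days 4, 4.5 and 5, and Hmgcs1 was 482.3 and 225.8 at days 4 and 4.5.

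Between days 4.5 and 5 of MULTI-seq 3 little was called. In whole gastruloids (16 against 16) Acat2, the acetyl-CoA thiolase, rose (0.12 ± 0.03, adjusted p = 0.017) and Acly fell (-0.12 ± 0.04, adjusted p = 0.026), beside 6.35% and 7.11% of all genes. The call on Acly was lost without the filter on low counts and without lane 2 of the pool. Within types, NMPs (8 against 14) had 5 genes higher and 0 lower, beside 2.58% and 3.49% of all genes: Fdps (0.32), Msmo1 (0.32), Cyp51 (0.30), Acat2 (0.29) and Scd2 (0.26). In these NMPs the markers T (-0.72), Dll1 (-0.92), Tbx6 (-0.48) and Stmn2 (-2.27) were lower and Sox1 (1.06) and Sox2 (0.45) higher, and the PSM list went from 430.6 to 350 CPM and the spinal cord list from 119.1 to 151.8. Early Spinal Cord cells (14 against 15) had 4 higher and 0 lower, beside 6.33% and 5.99%: Acat2 (0.29), Fdps (0.28), Stard4 (0.25) and Scd2 (0.18). Late Posterior PSM cells (9 against 15) had 3 higher and 0 lower, beside 3.14% and 3.02%: Mid1ip1 (0.68), Stard4 (0.38) and Acat2 (0.20). In the same cells all 3 somite markers tested (Tcf15, Foxc2, Meox1) were higher at day 5, the somite list going from 126.4 (86.26 to 181.9) to 236.8 CPM (113.8 to 329.9), with Sox2 higher and Stmn2 lower; their part in the result was not tested.

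In the remaining types calls went both ways or down. Mature Somites cells (10 against 16) had Hsd17b7 (0.46) and Msmo1 (0.29) higher and Acly (-0.26) lower, beside 6.94% and 7.66%. Late Spinal Cord cells (7 against 8) had Acat2 (0.22) higher and Acaca (-0.30) and Insig1 (-0.22) lower, beside 3.90% and 3.89%. Late Anterior PSM cells (5 against 12) had Acly lower (-0.48), beside 0.930%. Acat2 thus rose in 4 of these 6 types, and Acly fell in 2; whether the types differ was not tested. The neuron marker Stmn2 was lower at day 5 in all 6 types, and in Mature Somites Tubb3, Epcam, Irx3 and both cardiopharyngeal (Tbx1, Isl1) and both endothelium (Etv2, Kdr) markers tested were lower too, while Cdx2, Sox2, Dll1, Uncx and Meox1 were higher; their part in the result was not tested.

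**Figure D3:**
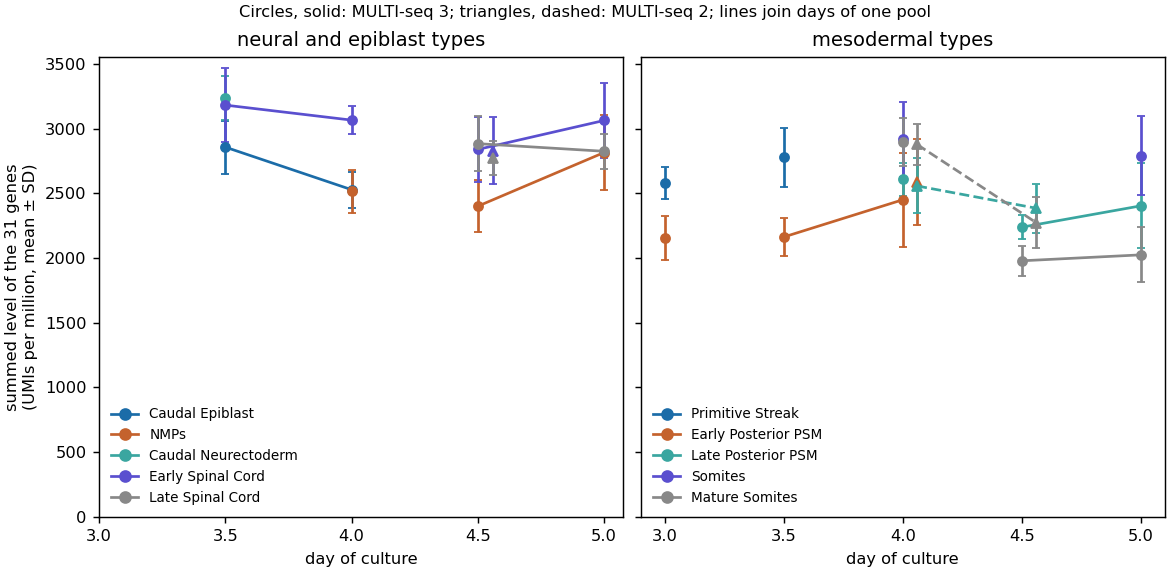
Summed level of the 31 genes (vertical axis, CPM, mean ± SD over gastruloids) by day for neural and epiblast types (left) and mesodermal types (right), circles for MULTI-seq 3 and triangles for MULTI-seq 2, with lines joining days of 1 pool. Early Posterior PSM stood below Caudal Epiblast at day 3.5 (2163 against 2858 CPM), and Mature Somites stood at 2025 CPM at day 5.

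Across the cell types of day 5, the sum was lowest in 2 mesodermal types and highest in a neural one, with Somites, another mesodermal type, level with the neural and NMP types between. In MULTI-seq 3 the order began with Head Mesoderm (1382 ± 142 CPM, n = 5) and Mature Somites (2025 ± 213, n = 16), followed by Late Posterior PSM (2404), Late Anterior PSM (2413), Mature Endoderm (2653), Somites (2793), NMPs (2816) and Late Spinal Cord (2826). It ended with Early Spinal Cord (3064 ± 292, n = 15). Neighbours in this order from Late Posterior PSM up differed by less than the larger of their SDs. Early Spinal Cord against Mature Somites stood the same way round in MULTI-seq 1 (3385 ± 224, n = 20, against 2425 ± 262, n = 22). Among the markers of its name, Early Spinal Cord cells held the spinal cord list at 302.6 CPM, and they also held the Caudal Epiblast and NMP list at 563.0 CPM, with Sox2 in both lists; somite markers stood at 10.84 CPM against 1587 in Mature Somites.

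**Figure D4:**
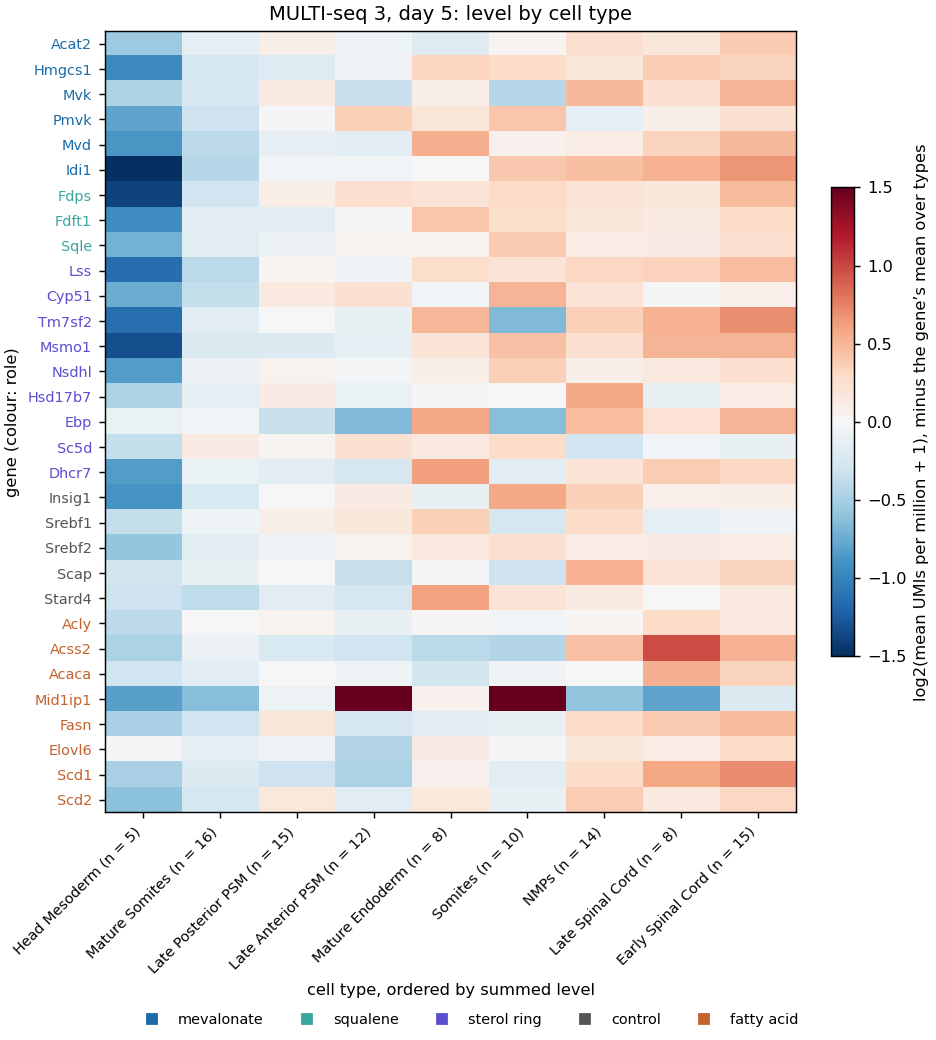
Level of each gene (rows, coloured by role) by cell type (columns, ordered by summed level, n gastruloids in brackets) at day 5 of MULTI-seq 3, as log2(mean CPM + 1) minus the gene's mean over types, with the colour scale ending at -1.5 and 1.5. Head Mesoderm is lowest for most genes, and Mid1ip1 stands out in Late Anterior PSM and Somites (106.4 and 104.0 CPM).

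Set gastruloid by gastruloid, 25 of 31 genes were higher in Early Spinal Cord than in Mature Somites cells in at least 90% of 15 gastruloids and 0 were lower, beside 18.6% and 24.2% of all genes. The median log2 difference was 0.54 over the 31 and -0.05 over all genes. Idi1 ran from 211.3 to 347.9 CPM (median 278.6) in Early Spinal Cord and from 91.22 to 185.4 (median 126.3) in Mature Somites, with a median difference of 1.16. Fasn ran from 68.12 to 102.9 CPM (median 89.54) and from 40.7 to 56.24 (median 51.94), a difference of 0.80. Scd1 ran from 45.69 to 70.32 CPM (median 52.04) and from 15.28 to 37.43 (median 30.77), a difference of 0.89. The 2 types did not overlap for these 3 genes, 1 from the mevalonate arm and 2 from fatty acid synthesis.

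Lss (0.87), Tm7sf2 (0.86), Mvd (0.82), Acss2 (0.82) and Fdps (0.73) followed, and Sc5d went the other way (-0.27, higher in 2 of 15). Other gastruloids gave 18 of 30 genes higher and 0 lower at day 4.5 of MULTI-seq 3 (n = 8, beside 15.5% and 18.8%; Idi1 1.31) and 14 higher and 0 lower of 30 in MULTI-seq 1 at day 5 (n = 19, beside 10.4% and 11.1%; Idi1 0.96, Scd1 0.86, Fasn 0.86, Sc5d -0.27). At day 4.5 of MULTI-seq 2 (n = 4) 8 were higher and 2 lower of 30, and the share higher was near the background (21.0% higher and 29.6% lower). These are descriptions, since the authors' clusters rest on the expression values compared.

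**Figure D5:**
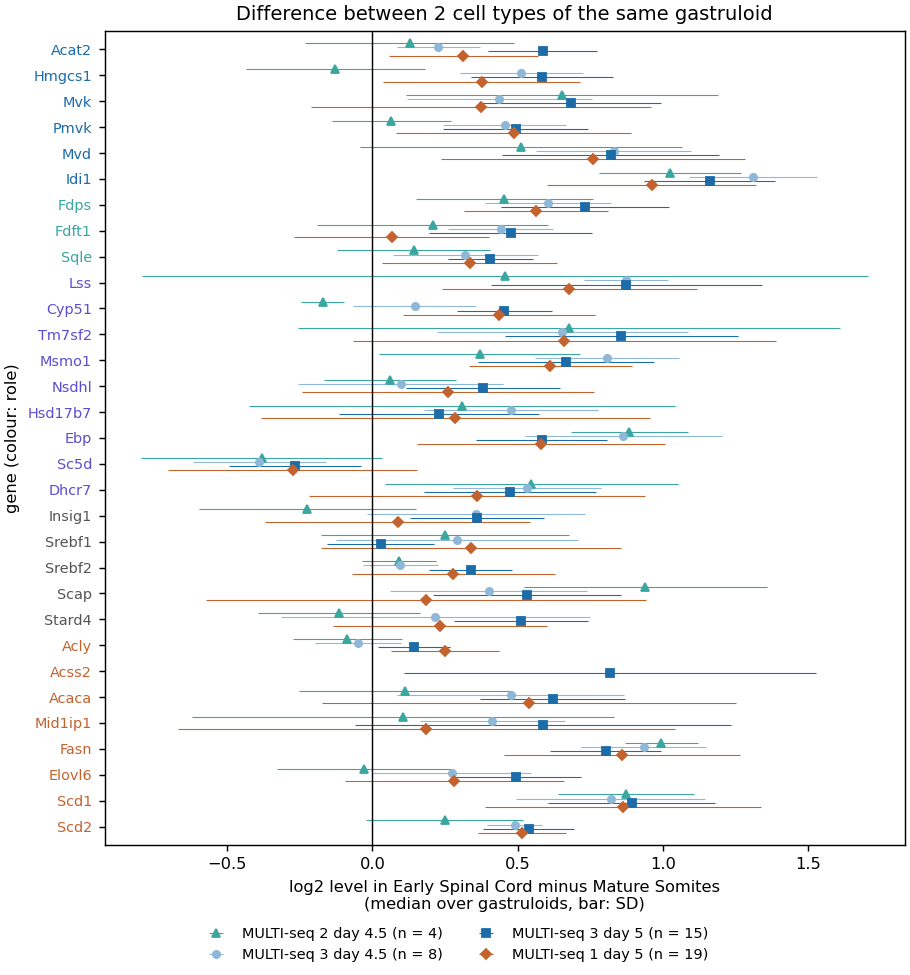
Log2 level in Early Spinal Cord minus Mature Somites cells of the same gastruloid (horizontal axis, median over gastruloids, bar: SD) for each gene (rows, coloured by role) in 4 groups of gastruloids. Idi1 lies between 0.96 and 1.31 in MULTI-seq 1 and MULTI-seq 3, and Sc5d lies below 0 in all 4 groups.

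Head Mesoderm, the lowest type at day 5, was not the lowest at day 4. In the 5 day 5 gastruloids Idi1 was 33.02, 60.54, 65, 71.45 and 73.63 CPM and Hmgcs1 105.4, 127.5, 137.8, 139.4 and 162.5. In 7 day 4 gastruloids Idi1 was 180.5 ± 36.5 CPM (155.6 to 258.9) and Hmgcs1 424.5 ± 63.14 (337.8 to 522.3), so neither gene overlapped. The summed level there was 2721 ± 245 CPM. In 3 gastruloids of day 4.5 of MULTI-seq 2, where it was again the lowest type (1713 ± 192.7 CPM), Idi1 was 66.92, 71.77 and 102.3 CPM and Hmgcs1 166.7, 189.6 and 208.6. The 3 groups came from different pools, so day and pool cannot be told apart. At day 4 the lowest type was Notochord (2034 ± 163, n = 6), below Early Posterior PSM (2451), NMPs (2515), Caudal Epiblast (2529) and Late Posterior PSM (2608), and the highest were Mature Somites (2900 ± 186, n = 7), Somites (2918), Mature Endoderm (2938) and Early Spinal Cord (3067, n = 3).

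Some genes were high in a few cell types. Mid1ip1 was high where presomitic mesoderm turns into somites: in MULTI-seq 3 it stood at 111.1 ± 29.02 CPM in Early Anterior PSM (n = 14), 115.7 ± 44.01 in Late Anterior PSM (n = 9) and 105.4 ± 20.14 in Somites (n = 10) at day 4, against 17.1 ± 12.19 in Late Posterior PSM. At day 5 Late Anterior PSM ran from 73.6 to 140.3 CPM and Somites from 63.74 to 149.7, while Late Posterior PSM ran from 9.289 to 54.93 and Mature Somites from 10.47 to 35.84. The 2 high types thus did not overlap the 2 low ones. The median difference between Late Anterior and Late Posterior PSM cells of a gastruloid was 2.56 at day 4 (n = 8) and 1.44 at day 5 (n = 12) of MULTI-seq 3, and 1.92 in MULTI-seq 1 (n = 13). Between Somites and Mature Somites it was 2.47 at day 5 (n = 10) and 0.99 at day 4 (n = 7).

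Other single genes departed from the sum. Hsd17b7 was highest in NMPs (46.26 ± 12.35 CPM, n = 9), Notochord (43.72) and Caudal Epiblast (40.06) at day 4, types with summed levels of 2515, 2034 and 2529 CPM. At day 3 it was the gene that differed most between Early Neurectoderm and Primitive Streak cells (-1.27 in 16 gastruloids, higher in 0 of them), a pair in which 3 genes were higher and 5 lower of 31, beside 15.7% and 6.41%. Ebp was 63.63 ± 9.8 CPM in Mature Endoderm (n = 13) and 16.2 ± 1.773 in Somites (n = 10) at day 4. Against Early Posterior PSM cells, Mature Endoderm had 15 of 31 genes higher and 4 lower in 12 gastruloids, beside 21.5% and 31.5%, with Ebp at 1.49, Stard4 at 1.37, Dhcr7 at 1.01 and Scap at -0.60.

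The experiments were also set against each other at the same day. At day 4, MULTI-seq 3 gastruloids had 4 genes higher and 21 lower of 31 than MULTI-seq 2 gastruloids, beside 23.0% and 23.1% of all genes, with a median of -0.31: Mvd (-0.80), Dhcr7 (-0.79), Fdps (-0.79), Ebp (-0.69), Hsd17b7 (-0.66), Msmo1 (-0.65) and Fasn (-0.57) led, and Hmgcs1 (0.28), Scd2 (0.17), Insig1 (0.16) and Srebf2 (0.09) were higher. At day 4.5, 6 were higher and 10 lower (21.1% and 21.4%), with Insig1 at 0.52, Idi1 at 0.29 and Fdps at -0.36; with UMIs per cell as a covariate 2 were higher and 17 lower, and Idi1 turned to -0.28. At day 5, MULTI-seq 3 against MULTI-seq 1 had 7 higher and 13 lower (30% and 33.7%), with Pmvk at 0.41, Scd2 at 0.29 and Srebf1 at -0.65. In that comparison all 10 cell cycle genes and 7 of 8 isoprenoid genes were lower too, Cdx2, Nkx1-2 and Dll1 were lower, and the markers Uncx, Tcf15, Pax3, Chrd, Shh, Epcam, Etv2 and Stmn2 were higher. With UMIs per cell as a covariate the day 5 counts were 0 and 0 and Scd2 turned to -0.14, the 2 experiments being at 12400 and 30970 UMIs per cell; experiment, depth and culture cannot be told apart.

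Inside cell types the direction at day 4 was kept. MULTI-seq 3 had 10 lower and 1 higher in Early Posterior PSM cells (beside 10.9% and 9.67%), 13 and 1 in Late Posterior PSM (15.4% and 12.3%) and 14 and 2 in Mature Somites (14.0% and 12.8%), and Fdps, Mvd and Msmo1 were lower in all 3. MULTI-seq 2 had only 4 gastruloids in each of these types. Leaving out each in turn gave 5 to 11, 9 to 12 and 11 to 13 lower, beside 822 to 923, 1162 to 1285 and 1022 to 1215 of all genes tested. At day 5, Scd2 and Pmvk were higher in MULTI-seq 3 in all 7 types tested and Srebf1 was lower in the 6 types where it was tested (it was left out by the filter in Somites). In Late Posterior PSM cells of day 5 the counts were 5 higher and 12 lower (25.1% and 27.4%), in NMPs 8 and 11 (23.8% and 27.3%) and in Early Spinal Cord 9 and 8 (27.9% and 31.2%).

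Whether a gastruloid high in one type was high in another was asked at day 5, over gastruloids with both Late Spinal Cord and Mature Somites cells. Across genes tested, 0 of 6866 were called in MULTI-seq 1 (n = 10) and 0 of 10649 in MULTI-seq 3 (n = 8) by permutation with Benjamini-Hochberg adjustment; 195 and 593 genes had an unadjusted p under 0.05. A single member had such a p in each: Mid1ip1 in MULTI-seq 1 (Pearson r = -0.70, permutation p = 0.0316, adjusted 0.999) and Fdps in MULTI-seq 3 (r = 0.72, exact permutation p = 0.0451, adjusted 0.888). The median r of the members was 0.08 in MULTI-seq 1 and -0.02 in MULTI-seq 3, beside 0.01 and 0.11 over all genes. The smallest p that these permutations can give exceeds what a single gene would need after adjustment over so many, so the counts of 0 say little. With Early Spinal Cord in place of Late Spinal Cord, an alternative added after the data were seen, 0 genes were again called. In MULTI-seq 3 (n = 15) the members' median r was then 0.26, with 26 of 31 above 0, beside 0.07 and 59.8% over all genes, and 6 members had an unadjusted p under 0.05, beside 754 of 10743 genes. In MULTI-seq 1 (n = 19) the median was 0.06, with 18 of 30 above 0, beside 0.03 and 53.6%, and 2 members had such a p, beside 530 of 7911 genes. The genes of a sample are not independent of each other.

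Lanes whose cells carry no gastruloid call give 1 value each, with 95% exact Poisson intervals that cover counting error only. Hmgcs1 was 300.7 CPM (296.1 to 305.3) in the day 3 lane and 390.2 (383.9 to 396.6) in the day 4 lane run without MULTI-seq, and 306.8 and 324.1 in the 2 lanes of pool C of MULTI-seq 2, each of which mixes days 4 and 4.5. Idi1 was 139.9 and 165.6 in the day 3 and day 4 lanes and 162.5 and 180.9 in the pool C lanes, and Mid1ip1 was 35.92 and 45.16, and 27.73 and 32.78, in the same order. They have no replicate and entered no comparison.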

How the data were processed

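Droplet libraries of pooled, barcoded gastruloids were read as the UMI counts per gene and cell that the authors deposited, with the authors' table of cells giving day, gastruloid and cell type. Per the submitters' processing notes, Cell Ranger 6.0.0, Seurat and the mm10 build were used; the deposited cell table marks every cell as no doublet, and no caller was run here. Cells called to 1 gastruloid were summed per gastruloid (at least 30 cells) or per gastruloid and type (at least 20 cells, at least 4 gastruloids a group). Sums were tested with edgeR 4.0.16 (quasi-likelihood, TMM, filterByExpr; R 4.3.3) and adjusted by Benjamini-Hochberg over all genes at a threshold of 0.05. The difference of day effects used limma 3.58.1 on log2 CPM with a prior count of 2. Correlations used 100000 permutations (exact for 8 gastruloids; SciPy 1.17.1). DESeq2 1.42.0 and other settings were alternatives. In day comparisons the replicates are gastruloids of 1 experiment, so p-values measure the spread between them and not between cultures. Levels between types are descriptions, because the clusters rest on the same counts.

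The genes and the neighbouring lists were chosen with earlier results of these data known. All 31 genes are counted; Hmgcs1, Idi1, Sqle, Insig1, Srebf1, Srebf2, Acly, Fasn, Scd1 and Scd2 are the fixed names, joined in each comparison by called genes with the largest changes (up to 10 a direction) and up to 4 genes of each other list with the smallest adjusted p. The day 3 and 3.5 libraries of MULTI-seq 2 are not analysed here. Promoters are RefSeq windows of GRCm38.p6.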

Additional observations from a re-analysis of the deposited data

Results flagged for a closer look

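The day effects of 8 genes between days 3.5 and 4 differed between Early Posterior PSM and Caudal Epiblast cells by limma. The difference in log2 fold change was 0.60 for Fdft1, 0.76 for Sqle, 0.72 for Msmo1, 0.62 for Sc5d, 0.55 for Cyp51, 0.44 for Mvd, 1.10 for Mid1ip1 and -1.06 for Hsd17b7.

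In 2 of 29 groups of 4 to 10 gastruloids, the summed level of 1 gastruloid lay apart from the rest, where chance alone gives about 1 in 20. One Caudal Neurectoderm sum at day 3.5 of MULTI-seq 3 was 3663 CPM with the nearest at 3364 (n = 10), and one Late Anterior PSM sum at day 4 was 3528 CPM with the nearest at 2987 (n = 9).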

How the results depend on the processing

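Normalization, the filter on low counts, minimum cells, lanes, covariates and left-out gastruloids were varied one at a time. Of counts and main results 266 stayed within 1.5 times and 43 moved. Of values of single genes 772 kept their side of the threshold, 72 lost and 11 gained the call. Another 6 changed sign with a call in either fit. A change of sign in a gene called in neither fit was not counted and lies among the 772. The causes were not tested. In whole gastruloids, the share of neural cells as a covariate gave 4 higher and 2 lower genes at day 5 against 4.5, 17 lower at day 4.5 against 4 in MULTI-seq 2, and turned Idi1 at day 4 against 3.5 to 0.0282. UMIs per cell as a covariate gave 5 lower in MULTI-seq 2 between days, 1 higher for MULTI-seq 3 against 2 at day 4, 2 higher and 17 lower at day 4.5 (Hsd17b7 0.16, Idi1 -0.28) and 0 and 0 against MULTI-seq 1 at day 5 (Mvk -0.069, Scd2 -0.14, Stard4 -0.005488). No filter on low counts gave 0 lower at day 5 against 4.5 and 5 lower in MULTI-seq 2; without lane 2 these were 0 and 3, and without lane 3 there were 2 higher at day 5 against 4.5.

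Within types, a minimum of 50 cells gave for day 5 against 4.5 1 lower in Early Spinal Cord, 1 higher in Late Posterior PSM and 1 lower in Late Spinal Cord. A minimum of 10 cells gave 6 lower in Mature Somites of MULTI-seq 2, where leaving out a gastruloid gave 2 to 6, beside 8 to 78 lower over all genes tested. For MULTI-seq 3 against 2 at day 4, leaving out a gastruloid gave 0 to 1 higher and 5 to 11 lower in Early Posterior PSM, 0 to 1 higher in Late Posterior PSM (3 at 10 cells) and 1 to 2 higher in Mature Somites. At day 4.5 it gave 2 to 6 lower in Late Spinal Cord; Early Spinal Cord had 3 lower at 50 cells and Mature Somites 1 higher at 10 and at 50 cells. Against MULTI-seq 1, 50 cells gave 1 lower in Late Anterior PSM and 7 lower in Late Posterior PSM and in NMPs, and 10 cells gave 4 lower in Somites. Between types, 50 cells gave 8 lower for Early Neurectoderm against Primitive Streak, 0 lower for Caudal Epiblast against Early Posterior PSM at day 3.5, 1 lower for Early Spinal Cord against Mature Somites at day 5 of MULTI-seq 3, 2 higher and 8 lower (MULTI-seq 1) and 8 lower (MULTI-seq 3) for Late Anterior against Late Posterior PSM at day 5, and 13 lower for Somites against Mature Somites at day 4. The difference of day effects had 7 to 9 calls; at a minimum of 10 cells it had 9, beside 9.63% of all genes. A minimum of 50 cells for the shared level could not be run in MULTI-seq 1.

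No paired analysis was possible because, between days, gastruloids carry no shared replicate numbers and the numbered lanes split the same pooled cells; types were compared within gastruloids.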
